A study of Mus musculus with 16 samples.

Results

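The 40 genes described here are listed as genes of T, natural killer (NK) and B lymphocytes, though not all of them mark lymphocytes alone. They were taken as a list of symbols and sorted into 9 roles, from the T cell receptor to B cell signalling. All 40 were found among the 34264 genes of the renal cortex count table, and 37 among the 24722 genes of the table for isolated glomeruli. The receptor constant-region genes Trac, Trbc1 and Trbc2 are described for cortex only.

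The samples came from wild-type (WT) mice aged 24 weeks. The diabetic mice had received a fat-rich diet together with streptozotocin, which kills the pancreatic cells that make insulin (HFD/STZ), and the effects of diet, toxin and diabetes cannot be told apart in this design. The 4 groups of 4 libraries were diabetic renal cortex (K-STZ), control renal cortex (K-Con), diabetic isolated glomeruli (G-STZ) and control isolated glomeruli (G-Con), all given as batch 1. Glomeruli are the filtering capillary tufts of the kidney, and the study was directed at injury of their podocytes and the histone methyltransferase NSD2. Whether each library is a separate animal is not stated, so the p-values reflect the spread among these libraries only, and that spread may be technical.

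T cells recognise antigen through a receptor made of variable chains and the signal-carrying CD3 chains, helped by the coreceptors CD4 and CD8. The kinase LCK, the kinase ZAP-70 and the adaptor LAT pass the signal on. NK cells and cytotoxic T cells kill with perforin and granzymes, whereas B cells signal through CD79 chains and BLNK, and their plasma cell progeny secrete antibody. A healthy kidney holds few of these cells. Bulk RNA cannot tell fewer or more cells from less or more RNA per cell.

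Total counts were 57473100 to 72352656 per cortex library and 36339294 to 41876031 per glomerular library. Within G-STZ, libraries 1 and 4 differed far less from each other than from the other libraries (chi-square per gene 6.69, against 66.2 to 97.9 for the other pairs of that group), and so did G-Con libraries 3 and 4 (2.76, against 45.7 to 84.4). Each such pair was summed and counted as 1 sample, which left 3 diabetic against 3 control glomerular samples, named 1+4, 2 and 3 for G-STZ and 1, 2 and 3+4 for G-Con. Levels are counts per 1e+06 counts (CPM) on scaled library sizes unless FPKM, which divides by gene length, is named. Changes are log2 fold changes of diabetic over control with their standard errors, tested by edgeR's quasi-likelihood test and called at a Benjamini-Hochberg adjusted p under 0.05.

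The sequences just before 4 of these genes are shown, chosen by the size of the genes' changes. Cd3d and Il7r had the largest log2 fold changes in cortex, and Blnk and Cytip the largest in glomeruli. Each run is the 250 bases before the gene's first listed start (RefSeq, GRCm38.p6), written on the gene's own strand. The windows of Il7r, Blnk and Cytip lie inside the outermost span of their GENCODE gene models, some of whose transcripts start further upstream. Capitals mark 4 short motifs, sought on both strands: AGGAAG and CCGGAA, around the GGAA core that ETS factors bind, TGTGGT, bound by RUNX factors, and TATAAA, the TATA box. Matches in these runs did not overlap one another.
Cd3d (chr9:44981536-44981785, plus strand): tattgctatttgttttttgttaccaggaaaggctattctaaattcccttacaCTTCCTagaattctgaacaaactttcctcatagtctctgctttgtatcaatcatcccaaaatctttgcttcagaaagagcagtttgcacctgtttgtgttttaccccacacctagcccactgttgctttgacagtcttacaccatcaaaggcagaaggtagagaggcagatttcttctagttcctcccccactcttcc
Il7r (chr15:9529877-9530126, minus strand): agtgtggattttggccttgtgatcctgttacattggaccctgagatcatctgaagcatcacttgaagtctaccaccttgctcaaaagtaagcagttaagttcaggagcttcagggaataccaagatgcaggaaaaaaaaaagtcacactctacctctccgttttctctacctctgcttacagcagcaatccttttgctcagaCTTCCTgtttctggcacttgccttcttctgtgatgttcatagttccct
Blnk (chr19:40994222-40994471, minus strand): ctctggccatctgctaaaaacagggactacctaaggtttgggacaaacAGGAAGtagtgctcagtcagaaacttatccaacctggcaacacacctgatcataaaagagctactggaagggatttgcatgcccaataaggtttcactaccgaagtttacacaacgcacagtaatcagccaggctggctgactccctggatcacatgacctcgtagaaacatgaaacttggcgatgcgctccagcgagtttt
Cytip (chr2:58160123-58160372, minus strand): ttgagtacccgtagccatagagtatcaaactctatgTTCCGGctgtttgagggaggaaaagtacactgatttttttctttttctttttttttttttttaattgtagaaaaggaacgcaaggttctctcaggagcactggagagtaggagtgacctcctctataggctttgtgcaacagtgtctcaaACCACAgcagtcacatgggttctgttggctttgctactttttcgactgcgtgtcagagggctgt
Cd3d, Il7r and Blnk each held 1 AGGAAG, and Cytip held 1 CCGGAA and 1 TGTGGT. Promoter entries were matched for 26 of the 40 genes. AGGAAG stood in 15 of these 26 windows (57.7%), against 29.2% of 27025 windows of all genes, and TGTGGT in 9 (34.6%), against 14.2%. CCGGAA stood in 3 (11.5%), against 12.2%, and TATAAA in 1 (3.85%), against 13%. These are matches of letters, not measured binding sites, and their part in the diabetic changes was not tested.

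In renal cortex many of the lymphocyte genes, most of them genes of T cells, were higher in diabetic than in control mice. Of the 38 members with enough counts to test, 20 were called higher and 0 lower, where 10.8% of all 19228 tested genes were called higher and 9.29% lower. No member was lower at an unadjusted p under 0.05 either, and DESeq2 called 27 higher and 0 lower. The log2 fold change was positive for 36 of the 38, with a median of 1.63, against -0.00 over all tested genes. For 25 members every diabetic library stood above every control library, where 13.5% of all tested genes did so, and 0 stood wholly below, against 11.4%. The number called higher ran from 14 without K-STZ library 3 to 26 without K-Con library 4. Without that control library Cd3g, Cd5, Nkg7, Cytip, Ikzf3 and Cd8b1 were called as well (adjusted p 0.00894, 0.0130, 0.0127, 0.0167, 0.0261 and 0.0421). So was a member too low to test with all libraries, while 19 of the 20 calls were kept and that of Ikzf1 was lost (adjusted p = 0.0527).

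**Figure D1:**
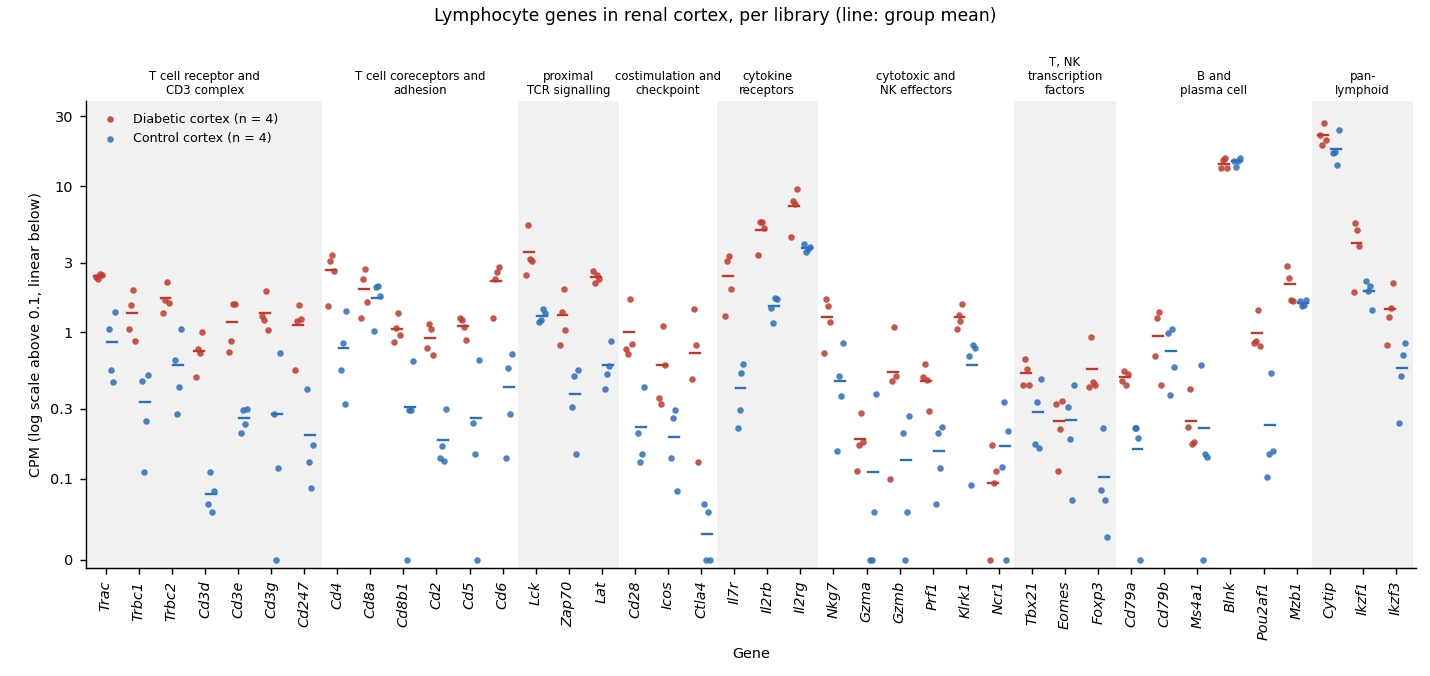
CPM of the 40 lymphocyte genes in each cortex library, by role (axis logarithmic above 0.1 CPM and linear below, line at the group mean, n = 4 diabetic and 4 control). The diabetic libraries lie above the control libraries for all 7 genes of the T cell receptor and CD3 complex, while the groups overlap for Blnk, Cytip and Cd8a.

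The T cell receptor and its CD3 chains were higher in diabetic cortex. Of these 7 genes 6 were called higher, all 7 had groups that did not overlap, and their median log2 fold change was 2.18. Cd3d, the CD3 delta chain, stood at 0.496, 0.771, 0.720 and 1.00 CPM in K-STZ libraries 1 to 4, against 0.0686, 0.111, 0.0586 and 0.0848 CPM in K-Con libraries 1 to 4. Even the lowest diabetic library was several times above the highest control, and the control values rest on 4 to 6 counts per library. Its log2 fold change of 3.19 ± 0.42 (adjusted p = 0.00117) was the largest of the 38 tested members.

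Cd3e, the epsilon chain, stood at 0.737, 0.869, 1.57 and 1.55 CPM in the K-STZ libraries, against 0.206, 0.296, 0.234 and 0.297 CPM in the K-Con libraries (log2 fold change 2.18 ± 0.36, adjusted p = 0.00304). Diabetic libraries 3 and 4 were the high ones, and no control came near any diabetic library. Cd247, which encodes the zeta chain that carries most of the signalling motifs, had 0.553, 1.19, 1.55 and 1.23 CPM in the K-STZ libraries, against 0.411, 0.130, 0.0878 and 0.170 CPM in the K-Con libraries (2.50 ± 0.52, adjusted p = 0.00862). Diabetic library 1 lay only just above control library 1. Cd247 shares 3213 of its 5329 exonic bases with other annotated genes, among them Pou2f1, and whether counting used strand is not given in the sources used here. The log2 fold change of Pou2f1 itself was -0.07 ± 0.10 (adjusted p = 0.671).

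Cd3g, the gamma chain, was the member of the complex that was not called. It had 1.30, 1.21, 1.91 and 1.04 CPM in the K-STZ libraries, against 0.274, 0, 0.117 and 0.721 CPM in the K-Con libraries (2.26 ± 0.79, adjusted p = 0.0750). The groups did not overlap, but the controls spread widely, between 0 and 51 counts. The 0 of control library 2 allows up to 0.0555 CPM, a limit of 3 counts that covers counting error only. Cd3g, Cd3d and Cd3e are neighbours on chromosome 9 (GRCm38, 44969572 to 45009627).

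Trac, the constant region of the receptor alpha chain, was the most even of the group in diabetic cortex, with 2.41, 2.31, 2.52 and 2.48 CPM in the K-STZ libraries, against 1.05, 0.555, 0.454 and 1.39 CPM in the K-Con libraries (1.49 ± 0.33, adjusted p = 0.0123). Control library 4 was the highest control and still below every diabetic library. The beta chain constant regions Trbc1 and Trbc2 are near-identical copies, between which counting may split reads in ways not given in the sources used here. Trbc1 had 1.06, 1.53, 1.96 and 0.874 CPM in the K-STZ libraries, against 0.463, 0.111, 0.249 and 0.509 CPM in the K-Con libraries (2.01 ± 0.46, adjusted p = 0.0135). Trbc2 had 1.36, 1.67, 2.22 and 1.59 CPM in the K-STZ libraries, against 0.651, 0.278, 0.425 and 1.05 CPM in the K-Con libraries (1.50 ± 0.38, adjusted p = 0.0213). Both were highest in diabetic library 3 and, among controls, in library 4. The call of Trbc2 was lost without K-STZ library 2 or 3 or K-Con library 3 (adjusted p up to 0.0661).

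Of the 6 coreceptor and adhesion genes 3 were called higher (Cd4, Cd2 and Cd6) and 3 were not (Cd8a, Cd8b1 and Cd5). Cd4, the coreceptor of helper and regulatory T cells, had 1.52, 3.07, 3.38 and 2.64 CPM in the K-STZ libraries, against 0.549, 0.851, 0.322 and 1.40 CPM in the K-Con libraries (1.76 ± 0.43, adjusted p = 0.0177). The groups were separate, though diabetic library 1 stood close to control library 4, and the call was lost without K-STZ library 2 or 3 or K-Con library 1 (adjusted p up to 0.0533). Cd8a had 1.26, 2.30, 2.71 and 1.60 CPM in the K-STZ libraries, against 1.03, 2.04, 2.06 and 1.77 CPM in the K-Con libraries, and the groups overlapped (0.19 ± 0.30, adjusted p = 0.711). Its partner chain Cd8b1 had 0.864, 1.07, 1.35 and 0.955 CPM in the K-STZ libraries, against 0, 0.296, 0.293 and 0.636 CPM in the K-Con libraries, with no overlap but a wide error (1.77 ± 0.73, adjusted p = 0.119). The 2 chains of one receptor thus gave different pictures, and the difference between them was not tested.

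Cd2, an adhesion receptor of T and NK cells, had 0.779, 1.14, 1.05 and 0.696 CPM in the K-STZ libraries, against 0.137, 0.167, 0.132 and 0.297 CPM in the K-Con libraries (2.30 ± 0.39, adjusted p = 0.00339). Cd6, a scavenger-type receptor of T cells, had 1.25, 2.33, 2.60 and 2.78 CPM in the K-STZ libraries, against 0.137, 0.574, 0.278 and 0.706 CPM in the K-Con libraries (2.39 ± 0.47, adjusted p = 0.00686). For both, all diabetic libraries were above all controls, and control library 4 was the highest control. Its neighbour on chromosome 19, Cd5, a receptor that dampens T cell signalling, averaged 1.11 ± 0.16 CPM in diabetic and 0.260 ± 0.28 CPM in control cortex (SD, n = 4 each). Cd5 also had separate groups but was not called (2.08 ± 0.78, adjusted p = 0.0931), one control library being at 0 counts.

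All 3 genes of proximal receptor signalling were called higher. Lck had 2.45, 5.42, 3.19 and 3.06 CPM in the K-STZ libraries, against 1.18, 1.22, 1.45 and 1.36 CPM in the K-Con libraries (1.44 ± 0.26, adjusted p = 0.00428). Lat had 2.64, 2.16, 2.46 and 2.32 CPM in the K-STZ libraries, against 0.411, 0.518, 0.586 and 0.876 CPM in the K-Con libraries (1.99 ± 0.26, adjusted p = 0.00116). Zap70 had 0.822, 1.39, 1.99 and 1.04 CPM in the K-STZ libraries, against 0.309, 0.4996, 0.146 and 0.551 CPM in the K-Con libraries (1.79 ± 0.44, adjusted p = 0.0183). None of the 3 overlapped between groups. Lat was even across the diabetic libraries, whereas Lck stood out in diabetic library 2 and Zap70 in diabetic library 3. The call of Zap70 was lost without K-STZ library 3 and without K-Con library 1 (adjusted p up to 0.0663 over all alternatives).

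Of the costimulatory genes 1 of 2 tested was called higher. Cd28, the main costimulatory receptor of T cells, had 0.765, 0.715, 1.69 and 0.826 CPM in the K-STZ libraries, against 0.206, 0.130, 0.146 and 0.424 CPM in the K-Con libraries (2.12 ± 0.48, adjusted p = 0.0126). Diabetic library 3 was far above the other 3, which still lay above all controls. Icos, the inducible costimulator, had 0.354, 0.322, 1.11 and 0.599 CPM in the K-STZ libraries, against 0.137, 0.259, 0.293 and 0.0848 CPM in the K-Con libraries. It had the same high library but was not called (1.62 ± 0.56, adjusted p = 0.0669). Ctla4, the inhibitory receptor for the same ligands as CD28, did not pass the low-count filter, with 34, 103, 52 and 8 counts in the K-STZ libraries, against 4, 0, 4 and 0 counts in the K-Con libraries.

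The 3 receptor chains for lymphoid cytokines were all called higher. Il7r, the interleukin-7 receptor that naive and memory T cells need to survive, had 1.29, 3.10, 3.32 and 1.99 CPM in the K-STZ libraries, against 0.223, 0.296, 0.527 and 0.608 CPM in the K-Con libraries (2.53 ± 0.41, adjusted p = 0.00271). Il2rb, the shared beta chain of the interleukin-2 and interleukin-15 receptors, had 3.37, 5.72, 5.71 and 5.21 CPM in the K-STZ libraries, against 1.46, 1.17, 1.73 and 1.70 CPM in the K-Con libraries (1.72 ± 0.22, adjusted p = 0.00106). Its groups were the furthest apart relative to their error within this role, at similar levels in 3 of the 4 diabetic libraries. Il2rg, the common gamma chain that other leukocytes carry too, had 4.46, 7.91, 7.51 and 9.57 CPM in the K-STZ libraries, against 4.03, 3.55, 3.70 and 3.83 CPM in the K-Con libraries (0.96 ± 0.21, adjusted p = 0.0106). Diabetic library 1 stood barely above the controls, which were tight. Of the 2387 exonic bases of Il2rg, 728 are shared with the predicted gene Gm20489.

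Of the 6 cytotoxic and NK genes 5 were tested, of which 1 was called higher (20%, against 10.8% of all tested genes) and 4 were not called. Prf1, which encodes perforin, had 0.496, 0.603, 0.470 and 0.291 CPM in the K-STZ libraries, against 0.0686, 0.204, 0.117 and 0.226 CPM in the K-Con libraries (1.58 ± 0.48, adjusted p = 0.0430). The groups were separate, but the call was lost under 11 of 14 alternatives (adjusted p 0.0255 to 0.124), among them the omission of any library other than K-Con 4. Klrk1, the activating receptor NKG2D, had 1.05, 1.30, 1.19 and 1.55 CPM in the K-STZ libraries, against 0.686, 0.0925, 0.820 and 0.777 CPM in the K-Con libraries, separate but not called (1.09 ± 0.49, adjusted p = 0.153). Nkg7, a protein of cytotoxic granules, averaged 1.27 ± 0.42 CPM in diabetic and 0.467 ± 0.29 CPM in control cortex (SD, n = 4 each) and just missed the threshold (1.44 ± 0.47, adjusted p = 0.0568). The granzymes Gzma and Gzmb overlapped between groups, with adjusted p of 0.697 and 0.157, and K-Con library 4 was the highest of all for Gzma. Ncr1, the receptor NKp46 that marks NK cells most closely, was too low to test, with 25 counts in all 4 diabetic libraries together and 40 in all 4 control libraries.

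The 3 transcription factors differed from one another. Foxp3, the factor that defines regulatory T cells, had 0.425, 0.925, 0.454 and 0.437 CPM in the K-STZ libraries, against 0.0857, 0.222, 0.0732 and 0.0283 CPM in the K-Con libraries (2.47 ± 0.61, adjusted p = 0.0178). Diabetic library 2 was high and the others alike, and control library 2 was likewise the highest control. The call was lost without K-STZ library 2 and without K-Con library 1, with an adjusted p of up to 0.0672 over all alternatives. Of the 4577 exonic bases of Foxp3, 2082 are shared with other annotated genes, among them Ccdc22 and Ppp1r3f. The log2 fold changes of Ccdc22 (0.25 ± 0.12, adjusted p = 0.163) and Ppp1r3f (0.52 ± 0.38, adjusted p = 0.388) were smaller than that of Foxp3.

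Tbx21, which encodes T-bet of type 1 helper and NK cells, had 0.439, 0.659, 0.564 and 0.437 CPM in the K-STZ libraries, against 0.171, 0.333, 0.161 and 0.480 CPM in the K-Con libraries (0.87 ± 0.44, adjusted p = 0.201). Control library 4 reached into the diabetic range. Eomes, its relative in NK and memory CD8 T cells, did not differ detectably at 8 to 23 counts per diabetic and 5 to 31 per control library (-0.02 ± 0.60, adjusted p = 0.989).

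Of the 6 B and plasma cell members 1 was called higher (16.7%, against 10.8% of all tested genes), a share near that of all genes in so short a list. Pou2af1, the coactivator OCA-B of B and plasma cells, had 0.850, 0.869, 1.43 and 0.809 CPM in the K-STZ libraries, against 0.103, 0.148, 0.527 and 0.155 CPM in the K-Con libraries (2.06 ± 0.52, adjusted p = 0.0197). Library 3 was the high one in both groups, without overlap, and the call was lost without K-STZ library 3 and without K-Con library 2 (adjusted p up to 0.0631). Cd79a, a chain of the B cell receptor complex, had 0.468, 0.547, 0.438 and 0.518 CPM in the K-STZ libraries, against 0.223, 0.222, 0.190 and 0 CPM in the K-Con libraries. Its groups were separate but it was not called (1.64 ± 0.72, adjusted p = 0.137), with control library 4 at 0 counts.

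The partner chain Cd79b averaged 0.939 ± 0.45 CPM in diabetic and 0.749 ± 0.33 CPM in control cortex (SD, n = 4 each; 0.32 ± 0.44, adjusted p = 0.661). Ms4a1, which encodes CD20 of mature B cells, averaged 0.246 ± 0.11 CPM in diabetic and 0.222 ± 0.26 CPM in control cortex (adjusted p = 0.928). For both, the groups overlapped. Blnk, the adaptor downstream of the B cell receptor, was far more abundant than its receptor chains, with 13.2, 15.1, 15.5 and 13.2 CPM in the K-STZ libraries, against 14.9, 13.6, 14.9 and 15.7 CPM in the K-Con libraries (-0.05 ± 0.09, adjusted p = 0.737). Per length Blnk was at 2.23 ± 0.26 FPKM in diabetic and 2.26 ± 0.23 FPKM in control cortex, whereas Cd79a was at 0.312 ± 0.034 FPKM in diabetic and 0.0972 ± 0.065 FPKM in control cortex (SD, n = 4 each). Mzb1, which assists antibody assembly in plasma cells, averaged 2.13 ± 0.59 CPM in diabetic and 1.58 ± 0.067 CPM in control cortex (0.43 ± 0.23, adjusted p = 0.219). Of the 1215 exonic bases of Mzb1, 695 are shared with SPATA24 on the same strand.

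Of the 3 regulators that lymphocytes share, Ikzf1 (Ikaros) was called higher, with 1.88, 5.59, 5.03 and 3.89 CPM in the K-STZ libraries, against 2.23, 1.91, 2.06 and 1.41 CPM in the K-Con libraries (1.11 ± 0.31, adjusted p = 0.0313). Diabetic library 1 lay within the control range, the only overlap among the 20 called members, and the call was lost under 10 of 14 alternatives (adjusted p 0.00405 to 0.126). Those included leaving out any library other than K-STZ 1. Ikzf3 (Aiolos), a relative active in B cells and plasma cells, had 0.822, 1.28, 1.47 and 2.19 CPM in the K-STZ libraries, against 0.240, 0.4996, 0.703 and 0.848 CPM in the K-Con libraries, at the threshold itself (1.32 ± 0.42, adjusted p = 0.05001, not called). Cytip, a protein that loosens leukocyte adhesion by binding cytohesin, was the most abundant member of all by CPM, with 22.4, 19.3, 27.0 and 20.8 CPM in the K-STZ libraries, against 17.0, 17.0, 14.0 and 24.4 CPM in the K-Con libraries. The groups overlapped (0.31 ± 0.17, adjusted p = 0.234).

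**Figure D2:**
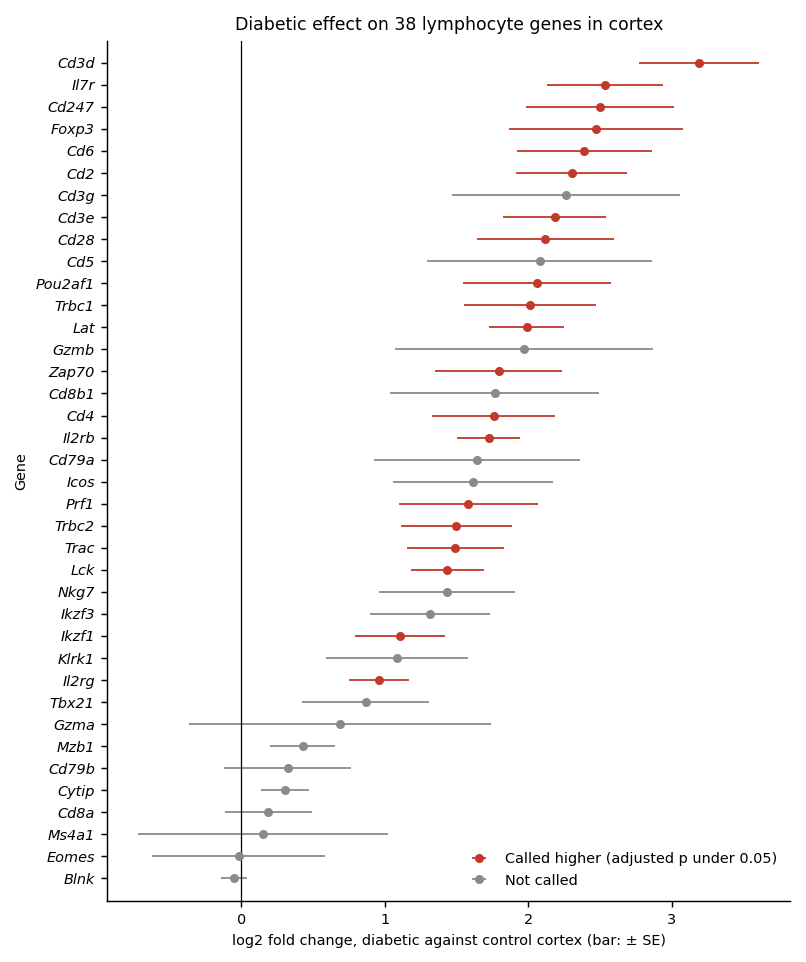
Log2 fold change of diabetic against control cortex for the 38 tested members, ordered by size, with bars of 1 standard error. Cd3d is at the top with 3.19, the 20 called members (red) run down to 0.96 for Il2rg, and Eomes (-0.02) and Blnk (-0.05) are at the bottom.

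The diabetic libraries did not share the rise equally. K-STZ library 3 was the highest of the 8 cortex libraries for 17 of the 38 tested members, and K-STZ library 1 was the lowest diabetic library for 20. Among controls, library 4 was the highest for 24. Summed over the T cell receptor and CD3 genes, levels were 7.92, 9.55, 12.5 and 9.76 CPM in the K-STZ libraries, against 3.12, 1.48, 1.63 and 4.21 CPM in the K-Con libraries. Control libraries 1 and 4 were thus the high controls, and neither reached the lowest diabetic library. The 6 cytotoxic and NK genes summed to 2.48, 4.39, 4.62 and 3.82 CPM in the K-STZ libraries, against 1.23, 1.13, 1.42 and 2.71 CPM in the K-Con libraries, so that control library 4 passed diabetic library 1.

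Markers of other leukocytes rose beside the lymphocyte genes. Of 13 tested pan-leukocyte genes 12 were called higher and 0 lower, led by Coro1a, Itgb2, Cd53 and Ptprc (CD45, 22.9 ± 5.0 CPM in diabetic and 11.1 ± 1.5 CPM in control cortex, SD, n = 4 each). Of 23 macrophage and myeloid markers 17 were called higher and 0 lower, and their summed level was 721 to 1102 CPM in the K-STZ libraries, against 302 to 497 CPM in the K-Con libraries. The median log2 fold change was 1.17 for pan-leukocyte genes and 1.45 for myeloid markers, against 2.18 for the T cell receptor and CD3 genes and 0.38 for the B and plasma cell members.

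Relative to pan-leukocyte genes, T cell genes stood higher in diabetic than in control cortex. Summed FPKM of the 16 receptor, coreceptor and signalling members, divided by that of the pan-leukocyte genes, was 0.349, 0.309, 0.318 and 0.319 in the K-STZ libraries, against 0.197, 0.181, 0.166 and 0.262 in the K-Con libraries. The diabetic ratios were nearly alike, and the highest control, library 4, stayed below them. Trac, Trbc1 and Trbc2 make up much of the summed FPKM of these 16 members. They averaged 2.42, 1.73 and 2.32 FPKM in diabetic and 0.833, 0.407 and 0.794 FPKM in control cortex. For the myeloid markers the same ratio was 11.6, 12.3, 10.6 and 11.2 in the K-STZ libraries, against 7.18, 8.06, 8.12 and 9.12 in the K-Con libraries, also without overlap. For the 6 B and plasma cell members it was 0.180, 0.130, 0.112 and 0.116 in the K-STZ libraries, against 0.232, 0.232, 0.248 and 0.177 in the K-Con libraries, with an overlap between K-STZ library 1 and K-Con library 4. Blnk, which was not called, makes up much of that sum, and without it the ratio was 0.110, 0.0764, 0.0618 and 0.0596 in the K-STZ libraries, against 0.111, 0.0993, 0.121 and 0.0730 in the K-Con libraries. Much of the sum that remains is Mzb1, which was not called either and averaged 1.62 FPKM in diabetic and 1.18 FPKM in control cortex. In CPM the 5 members other than Blnk summed to 4.797 ± 0.83 in diabetic and 2.95 ± 0.65 in control cortex (SD, n = 4 each), so the sum itself was not lower in diabetic cortex. The ratios are given as descriptions and were not tested.

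**Figure D3:**
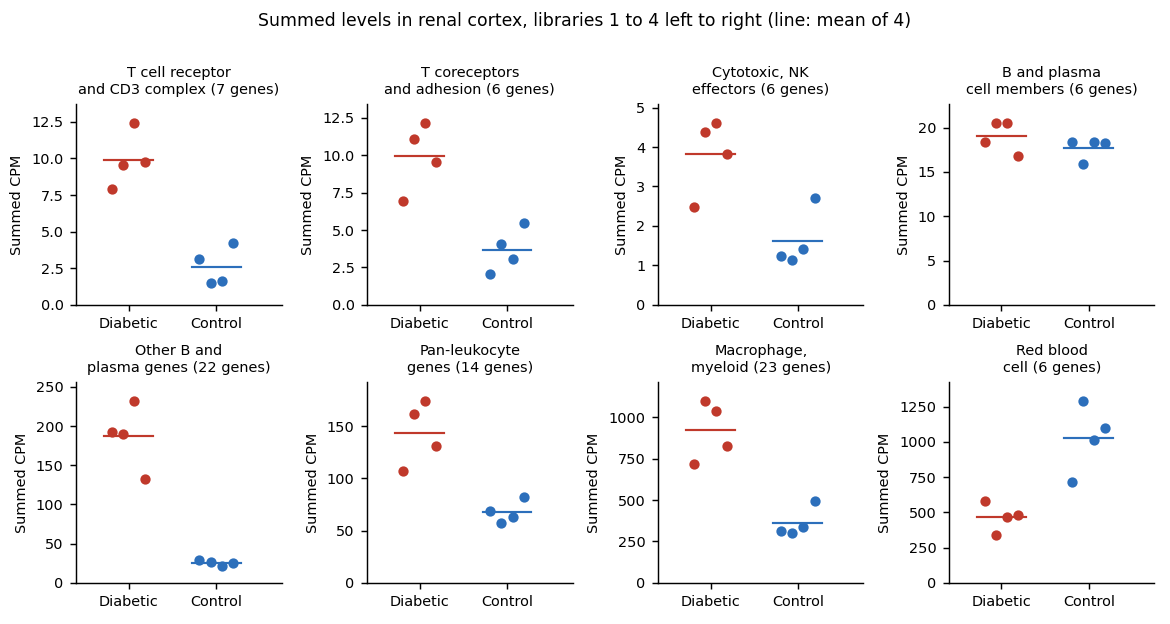
Summed CPM per cortex library for 4 roles of the lymphocyte genes and 4 companion lists (libraries 1 to 4 from left to right, line at the mean of 4). T cell receptor genes, coreceptors and other B and plasma genes are higher in every diabetic library, the B and plasma members overlap, and red blood cell genes are lower in every diabetic library.

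Further genes of the same cell types were read from companion lists. Of 34 tested other T cell genes 14 were called higher (41.2%, against 10.8% of all tested genes) and 1 lower, and 7 had a negative log2 fold change. The summed level of this list overlapped, at 115.7 to 161.3 CPM in the K-STZ libraries and 111.6 to 144.8 CPM in the K-Con libraries. Slamf6 averaged 0.719 ± 0.11 CPM in diabetic and 0.0879 ± 0.039 CPM in control cortex (SD, n = 4 each; log2 fold change 3.01 ± 0.43, adjusted p = 0.00160). Ccr7, the homing receptor for lymphoid tissue, averaged 1.51 ± 0.57 CPM in diabetic and 0.229 ± 0.12 CPM in control cortex (2.69 ± 0.45, adjusted p = 0.00345). Gimap3 (1.27 ± 0.19) and Sh2d2a (2.02 ± 0.35) completed the 4 with the smallest adjusted p. Of 12 tested other NK and cytotoxic genes 2 were called higher (16.7%, against 10.8% of all tested genes) and 0 lower, a share near that of all genes in so short a list. They were the chemokine Ccl5 (2.44 ± 0.33, adjusted p = 0.00127) and the granule protease Ctsw (1.40 ± 0.42, adjusted p = 0.0407).

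Antibody genes were higher in diabetic cortex. Of 18 tested other B and plasma cell genes 6 were called higher (33.3%, against 10.8% of all tested genes). In the same list 1 was called lower, where 9.29% of all tested genes were. The gene called lower, Cr2, is described under the other observations. Igkc, the constant region of the kappa light chain, averaged 95.4 ± 18 CPM in diabetic and 5.60 ± 1.5 CPM in control cortex (SD, n = 4 each; 4.09 ± 0.24, adjusted p = 8.14e-05). Jchain, which joins the subunits of secreted IgM and IgA, averaged 30.8 ± 11 CPM in diabetic and 2.88 ± 1.1 CPM in control cortex (3.42 ± 0.37, adjusted p = 0.00112). Cd72 (1.40 ± 0.22) and Cd37 (1.30 ± 0.24) were called higher too. The list summed to 193.0, 189.7, 232.5 and 132.2 CPM in the K-STZ libraries, against 29.1, 26.5, 21.9 and 25.4 CPM in the K-Con libraries, and the lowest diabetic library was several times above all controls. Most of that sum is Igkc, Ighm and Jchain, and the other 19 genes summed to 17.1 to 31.1 CPM in the K-STZ libraries, against 12.1 to 13.6 CPM in the K-Con libraries. The B cell members Cd79b and Ms4a1 were not called beside these antibody genes.

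Markers of tissues that a dissected cortex could carry along were read as well. Lymph node and lymphatic markers summed to 13.8 to 20.4 CPM in the K-STZ libraries, against 11.8 to 21.7 CPM in the K-Con libraries. Among them 1 of 6 tested, Ltb, was called higher (16.7%, against 10.8% of all tested genes). Adipocyte markers summed to 42.0 to 48.2 CPM in the K-STZ libraries, against 23.2 to 231 CPM in the K-Con libraries, with K-Con library 3 the high one and 0 of 3 called. Red blood cell markers were lower, with 5 of 5 tested called, at 338 to 578 CPM in the K-STZ libraries, against 714 to 1294 CPM in the K-Con libraries. Proximal tubule markers had 1 called higher and 6 lower of 15. The part of blood and tubule RNA in the lymphocyte result was not tested.

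In isolated glomeruli most lymphocyte genes were too low to test, and Cytip, Blnk and Eomes showed the largest changes. Of the 37 members in the table, 15 had enough counts to test, of which 5 were called higher and 1 lower, where 19.4% of the 15238 tested genes were called higher and 18.2% lower. DESeq2 called 5 higher and 1 lower, of 33 it tested. It kept 4 of the 5 and called Ikzf1 (adjusted p = 0.0131) in place of Gzma (adjusted p = 0.0791). The median log2 fold change of the 15 was 0.69, against 0.01 over all tested genes. Groups did not overlap for 6 members that were higher and 2 that were lower, where 26.6% and 27.6% of all tested genes did not. With library totals in place of scaled sizes, 6 were called higher and 1 lower, 72.5% rather than 51.6% of all glomerular calls were higher, and the median of all genes moved to 0.20.

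Cytip had the smallest adjusted p of these. It stood at 17.7, 13.4 and 15.3 CPM in G-STZ samples 1+4, 2 and 3, against 0.806, 0.899 and 0.636 CPM in G-Con samples 1, 2 and 3+4 (4.32 ± 0.21, adjusted p = 0.000320). Blnk had 20.6, 22.2 and 7.27 CPM in the G-STZ samples, against 0.484, 0.794 and 0.636 CPM in the G-Con samples (4.71 ± 0.50, adjusted p = 0.00120). Eomes had 0.845, 1.12 and 0.715 CPM in the G-STZ samples, against 0.0537, 0.132 and 0.0763 CPM in the G-Con samples (3.34 ± 0.43, adjusted p = 0.00200). For all 3 genes the lowest diabetic sample was several times above the highest control, with sample 3 the low one for Blnk and Eomes and sample 2 for Cytip.

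Lck had 4.08, 3.49 and 2.50 CPM in the G-STZ samples, against 1.34, 1.64 and 1.03 CPM in the G-Con samples (1.34 ± 0.30, adjusted p = 0.0146). Gzma, a granzyme, had 0.355, 0.342 and 0.262 CPM in the G-STZ samples, against 0.107, 0.106 and 0.127 CPM in the G-Con samples (1.46 ± 0.36, adjusted p = 0.0207). Both had separate groups, but Gzma rests on 4 to 29 counts per sample and lost its call under 8 of 14 alternatives, DESeq2 among them. Lck was no longer called without G-Con libraries 3 and 4. Without those 2 libraries 3 members were called higher. With G-STZ sample 2 as the only diabetic sample, the log2 fold changes of Lck and Gzma were 1.42 and 1.57, without a diabetic replicate.

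Cd6 was the member called lower, with 0.220, 0.160 and 0.191 CPM in the G-STZ samples, against 0.913, 0.873 and 0.763 CPM in the G-Con samples (-2.12 ± 0.31, adjusted p = 0.00302). Both groups were tight and far apart, but Cd6 rests on 7 to 60 counts per sample. With G-STZ sample 2 as the only diabetic sample its log2 fold change was -2.36, without a diabetic replicate. Cd28 went the same way without being called, with 0.147, 0.0457 and 0.167 CPM in the G-STZ samples, against 0.296, 0.318 and 0.420 CPM in the G-Con samples (-1.50 ± 0.49, adjusted p = 0.0504). Ikzf1 had 2.35, 1.51 and 4.34 CPM in the G-STZ samples, against 0.860, 1.48 and 0.521 CPM in the G-Con samples, where diabetic sample 2 barely cleared control sample 2 (1.53 ± 0.54, adjusted p = 0.0629). Ikzf1 was called without G-STZ library 2 (adjusted p = 0.0482) or G-Con library 2 (adjusted p = 0.0429). DESeq2 (adjusted p = 0.0131), library totals (adjusted p = 0.0434) and the fits on 8 separate libraries without and with the replicate block (adjusted p = 0.0131 and 0.0453) called it too. Il2rg was abundant in both groups, at 24.2, 16.6 and 20.0 CPM in the G-STZ samples, against 17.5, 38.2 and 18.0 CPM in the G-Con samples, with control sample 2 apart (-0.27 ± 0.33, adjusted p = 0.548).

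**Figure D4:**
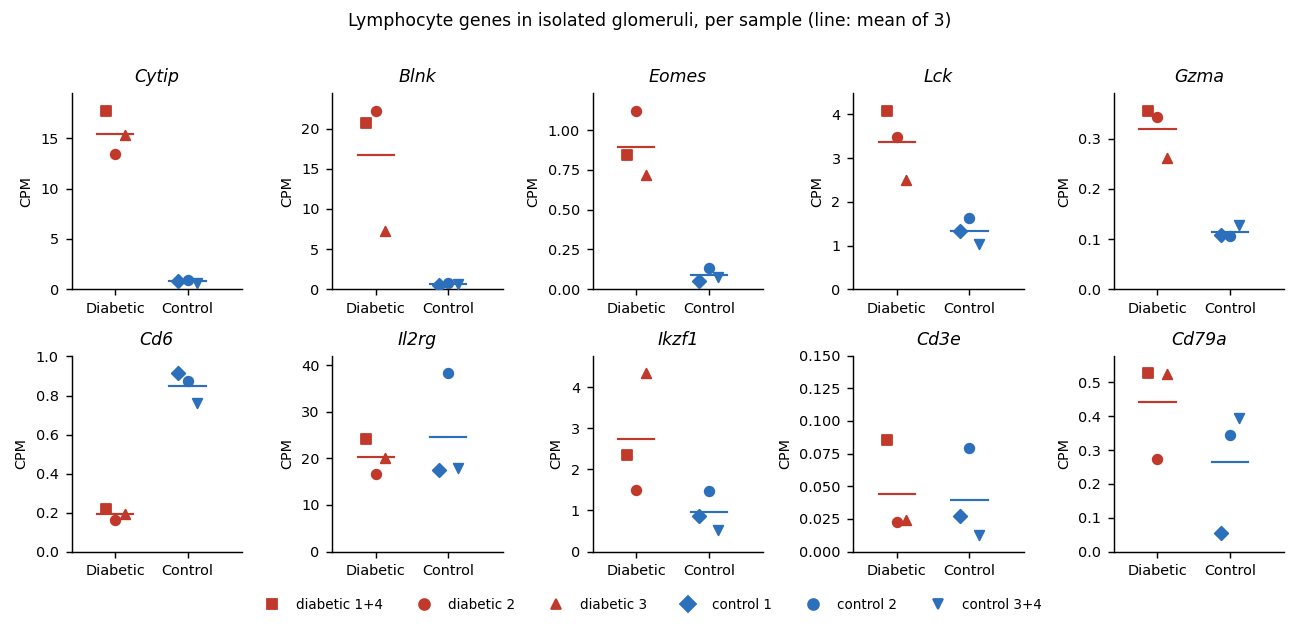
CPM per glomerular sample of 10 lymphocyte genes (linear axes from 0, line at the mean of 3, one marker shape per sample). Cytip, Blnk, Eomes, Lck and Gzma are higher and Cd6 lower in all 3 diabetic samples, while Cd3e and Cd79a overlap.

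The genes that define T and NK cells were near the detection limit in glomeruli. Cd3e had 7, 1 and 1 counts in the G-STZ samples, against 1, 3 and 1 counts in the G-Con samples. Cd3d had 4, 3 and 0 counts in the G-STZ samples, against 2, 0 and 1 counts in the G-Con samples, and Foxp3 had 1, 0 and 0 counts in the G-STZ samples, against 0, 1 and 1 counts in the G-Con samples. The NK receptor gene Ncr1 had 9, 1 and 2 counts in the G-STZ samples, against 1, 2 and 3 counts in the G-Con samples. Klrk1 had 23, 0 and 1 counts in the G-STZ samples, against 4, 2 and 1 counts in the G-Con samples, so that sample 1+4 held most of them. None of these allows a comparison, and the floor of 3 counts was 0.0367 to 0.0806 CPM per sample. Of the B cell receptor chains, Cd79a had 0.526, 0.274 and 0.524 CPM in the G-STZ samples, against 0.0537, 0.344 and 0.394 CPM in the G-Con samples, with overlap (0.69 ± 0.63, adjusted p = 0.420). Ms4a1 had 31, 3 and 2 counts in the G-STZ samples, against 9, 2 and 10 counts in the G-Con samples.

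Single genes of the companion lists were far higher in diabetic glomeruli, while the T and B cell lists had shares of calls near or below the 19.4% of all tested genes. Il18r1 and Il18rap, the 2 chains of the interleukin-18 receptor, both stood far above control. Il18r1 averaged 46.2 ± 17 CPM in diabetic and 0.493 ± 0.61 CPM in control glomeruli (SD, n = 3 each; 6.71 ± 0.82, adjusted p = 0.00181). Il18rap averaged 42.0 ± 7.9 CPM in diabetic and 1.22 ± 1.2 CPM in control glomeruli (5.17 ± 0.67, adjusted p = 0.00212). Ctsw averaged 12.6 ± 1.1 CPM in diabetic and 1.12 ± 0.51 CPM in control glomeruli (3.50 ± 0.33, adjusted p = 0.000845). In all, 3 of 15 tested other T cell genes (20%) were called higher and 0 lower, among them Il18r1 and Tcf7, and 4 of 6 tested other NK and cytotoxic genes (66.7%) were called higher and 0 lower. Of 9 tested other B and plasma cell genes, Fcmr alone was called, higher (11.1%).

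Markers of tubule and other epithelium moved with these samples. Proximal tubule markers summed to 1412, 115 and 668 CPM in the G-STZ samples, against 92.4, 109 and 84.0 CPM in the G-Con samples, and 12 of 15 were called higher. The distal nephron markers without Krt8, Krt18 and Cdh1, which other epithelia share, summed to 1855, 79.4 and 840 CPM in the G-STZ samples, against 79.9, 57.5 and 62.5 CPM in the G-Con samples. By these 2 sums diabetic samples 1+4 and 3 were the high ones and diabetic sample 2 was at or near the control level. With Krt8, Krt18 and Cdh1 included, the distal list summed to 2384 CPM in diabetic sample 2, far above control. The G-Con samples then summed to 68.9 to 96.1 CPM. In that sample 2, Cytip, Blnk and Eomes stood at 13.4, 22.2 and 1.12 CPM. With G-STZ sample 2 alone against the controls the log2 fold changes of these 3 genes were 4.14, 5.14 and 3.685. Those of Lck, Gzma and Cd6 were 1.42, 1.57 and -2.36. This fit has no diabetic replicate, and the lone sample is assumed to vary like the controls.

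The epithelial keratin Krt8 was high in every diabetic sample, at 600.5 to 1264 CPM, against 2.26 to 19.1 CPM in control glomeruli (6.96 ± 1.04, adjusted p = 0.00347), and Cdh1, the epithelial cadherin, likewise (6.71 ± 0.59, adjusted p = 0.000756). The part of Krt8-expressing or other epithelial cells in the levels of Cytip, Blnk and Eomes was not tested. Pan-leukocyte genes had 4 called higher (30.8%, against 19.4% of all tested genes) and 1 lower of 13. Their summed level was 151 to 360 CPM in the G-STZ samples, against 402 to 634 CPM in the G-Con samples. That sum is carried by Lsp1, which averaged 98.0 ± 60 CPM in diabetic and 449 ± 132 CPM in control glomeruli (SD, n = 3 each; -2.20 ± 0.45, adjusted p = 0.0108). Ptprc itself was called higher, at 12.1 ± 5.0 CPM in diabetic and 4.11 ± 1.1 CPM in control glomeruli (1.56 ± 0.35, adjusted p = 0.0150). Myeloid markers had 8 called higher (38.1%) and 1 lower of 21, with sums of 304 to 863 CPM in the G-STZ samples and 340 to 820 CPM in the G-Con samples.

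Podocyte markers, which check the labelled tissue, summed to 2360 to 4720 CPM in the G-STZ samples, against 5086 to 6735 CPM in the G-Con samples, with the lowest value in diabetic sample 3. In the separately made cortex table they summed to 402.5 to 454.9 CPM in the K-STZ libraries, against 470.8 to 508 CPM in the K-Con libraries. Of these 10 markers 1 was called higher and 3 lower in cortex.

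The effect of diabetes on single lymphocyte genes differed between the tissues for 11 of 37 members, by a test of the difference itself in 1 model of the 4 groups. For 3 members the effect was more positive in glomeruli and for 8 more negative, where 18.8% and 16.3% of the 16305 tested genes were so called, so that, with both directions combined, members were called in a share below that of all genes. The more positive ones were Blnk (difference of log2 fold changes 4.76 ± 0.43, adjusted p = 4.51e-06), Cytip (4.03 ± 0.29, adjusted p = 6.46e-07) and Eomes (3.35 ± 0.86, adjusted p = 0.00865). None of these 3 was called in cortex, where Blnk and Cytip were present at similar levels in both groups. Lck, called higher in both tissues, did not differ detectably between them (-0.09 ± 0.40, adjusted p = 0.886).

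The 8 more negative members were T cell genes and cytokine receptor chains. Cd6 had the largest difference (-4.51 ± 0.69, adjusted p = 0.000293), being higher in diabetic cortex and lower in diabetic glomeruli. Cd28 (-3.61 ± 0.78, adjusted p = 0.00325), Il7r (-3.15 ± 0.76, adjusted p = 0.00611) and Cd247 (-2.77 ± 0.81, adjusted p = 0.0173) followed. Cd4 (-2.40), Cd2 (-2.08), Lat (-1.84) and Il2rg (-1.22) had adjusted p of 0.0288, 0.0378, 0.00466 and 0.0291. All 8 were called higher in diabetic cortex. In the glomerular fit Cd4, Cd2 and Il7r were below the low-count filter (2 to 12 counts per sample for Cd2, 3 to 20 for Cd4 and 4 to 33 for Il7r), and of the 5 tested there Cd6 was called and the others were not. The call of Cd4 was lost under 5 of 19 alternatives, among them leaving out K-STZ library 3, K-Con library 1, G-STZ library 2 or G-Con library 2 (adjusted p up to 0.0830). Those of Cd2 and Il2rg were lost under 11 and 8, most of them the omission of 1 sample (adjusted p up to 0.0948 and 0.105). Because the tables of the tissues were made separately, levels of a gene are not compared between them, whereas a factor that acts alike on all libraries of one table cancels in this difference.

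**Figure D5:**
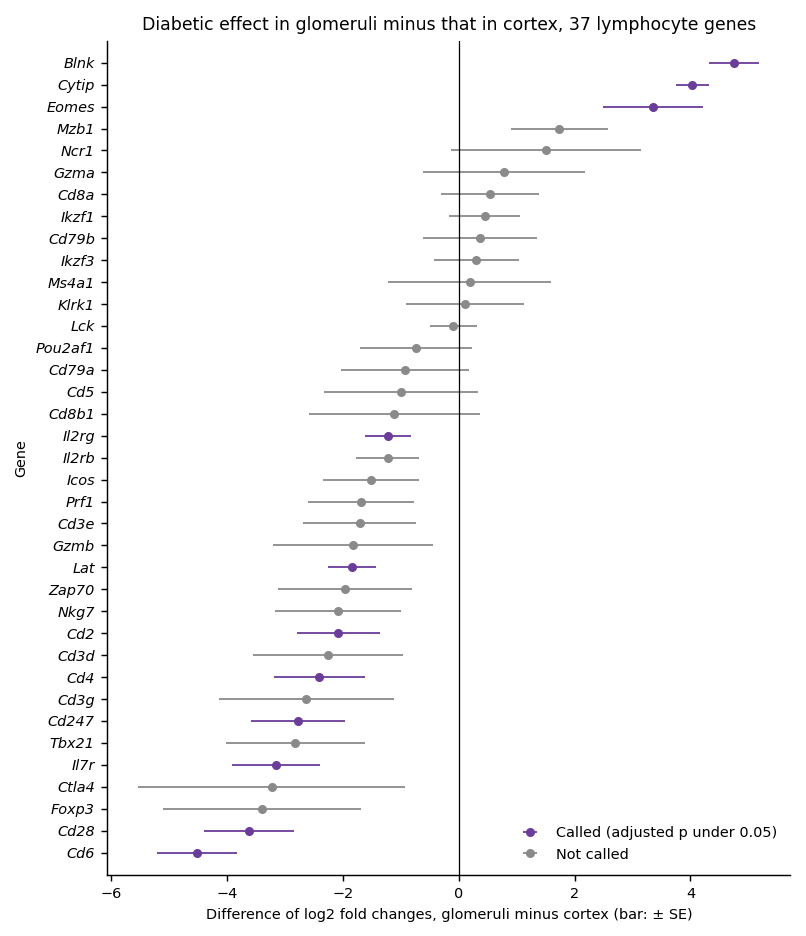
Difference of the diabetic log2 fold change, glomeruli minus cortex, for the 37 members in both tables, with bars of 1 standard error. Blnk, Cytip and Eomes lie furthest to the right and Cd6, at -4.51, furthest to the left, and the 11 called members are drawn in purple.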

How the data were processed

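Per the labels' protocols, RNeasy Plus Mini columns gave the RNA, of which 1.3 µg per sample went into SMARTER mRNA-Seq libraries. GRCm38 and mm10 are named by the submitters' processing notes. Which aligner, counter and annotation were used, and whether counting used strand, is not given in the sources used here. The authors deposited raw counts per gene symbol for glomeruli. The cortex table deposited by the authors holds, by its values, estimated counts per Ensembl identifier made whole. The authors also deposited FPKM values for both tissues, per gene length and library size, which were used for levels per length and as alternatives.

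Names and positions came from GENCODE on GRCm38. The tables joined at 18796 genes. The members and companion lists were chosen with earlier results of these data known. Each tissue was fitted alone on all its genes with edgeR 4.0.16 (R 4.3.3: filterByExpr, TMM, robust glmQLFit, glmQLFTest, Benjamini-Hochberg, threshold 0.05). The difference between tissues was the interaction in 1 edgeR model. Libraries of a group whose chi-square per gene was more than 5 times below that of the group's other pairs were summed, a rule also set with those results known. Alternatives were DESeq2 1.42.0, library totals, no low-count filter, limma 3.58.1 on log2(FPKM + 1) or log2(FPKM + 0.1), a minimum mean FPKM of 0.5, each sample left out, separate libraries and a replicate block. The scripts were tested on simulated counts.

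Members named with values per sample were those called in either tissue and the most abundant uncalled ones of a role, and further members are given to complete their role. From each companion list up to 4 genes with the smallest adjusted p were to be named, and genes beyond that (Ltb in cortex, and Lsp1, Ptprc, Krt8 and Cdh1 in glomeruli) were chosen after their values were seen. The values of 1 gene of the companion lists are not reported here.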

Additional observations from a re-analysis of the deposited data

Results flagged for a closer look

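Single cortex libraries stood apart from the other 3 of their group by Dixon's criterion in 6 of 76 groups tested, where chance gives about 1 in 20. K-STZ library 3 was high for Cd28 (1.69 CPM, next 0.826) and for Pou2af1 (1.43 CPM, next 0.869). K-STZ library 2 was high for Foxp3 (0.925 CPM, next 0.454). Among controls, K-Con library 4 was high for the granzyme Gzma (0.382 CPM, next 0.0586) and low for Cd79a (0 CPM, next 0.190), and K-Con library 3 was high for Pou2af1 (0.527 CPM, next 0.155).

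The diabetic effect differed between glomeruli and cortex, by the interaction test, for 11 of 37 members (3 more positive in glomeruli and 8 more negative, where 18.8% and 16.3% of all tested genes were so called). The difference of log2 fold changes, glomeruli minus cortex, was 4.76 for Blnk, 4.03 for Cytip and 3.35 for Eomes. It was -4.51 for Cd6, -3.61 for Cd28, -3.15 for Il7r, -2.77 for Cd247, -2.40 for Cd4, -2.08 for Cd2, -1.84 for Lat and -1.22 for Il2rg.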

How the results depend on the processing

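In cortex the members called higher numbered 14 to 26 when 1 library was left out, 17 with the replicate block, 20 with library totals and 27 with DESeq2, against 20, and 0 were called lower in any alternative run. With log2(FPKM + 1) and a minimum mean FPKM of 0.5, 7 of the 11 members still tested were called higher, and in glomeruli 3 of 4 higher and 0 lower. In glomeruli, against 5 higher and 1 lower, the number higher was 3 to 5 with 1 sample left out. It was 6 higher and 2 lower with 8 separate libraries, and the same with the replicate block on these. For the difference between tissues, members more negative in glomeruli numbered 5 with the replicate block on 16 libraries, 6 with library totals and 6 to 9 with 1 sample left out, against 8. The cause of these changes was not tested.

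Same-numbered diabetic and control libraries of a tissue did not deviate together, so the replicate block is a check only. Correlations of their deviations were -0.102 to 0.044 in cortex and -0.058 to 0.110 in glomeruli. Whether same-numbered cortex and glomerular libraries are paired was not tested. The test of the difference between tissues treats them as independent.

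Signs turned only for members that were not called. In cortex Eomes was 0.003 with log2(FPKM + 1), 0.0381 with log2(FPKM + 0.1), 0.10 with the replicate block and -0.33 to 0.40 with 1 library left out. Leaving out 1 library gave -0.25 to 1.31 for Ms4a1 and -0.0016 to 0.35 for Cd8a in cortex, and -7e-04 to 0.95 for Il2rb, -0.18 to 0.32 for Icos and -0.48 to 0.18 for Il2rg in glomeruli. Cd79b was -3.20 in glomeruli without diabetic libraries 1, 3 and 4. In cortex 15 of the 20 calls were kept with log2(FPKM + 1), where Zap70, Cd28, Prf1, Foxp3 and Ikzf1 were lost, and 17 with log2(FPKM + 0.1), where Cd28, Prf1 and Ikzf1 were lost. Counts under about 10 per library limit most glomerular members.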

Other observations

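Further lymphocyte genes in cortex were picked after their values were seen. Pdcd1, the inhibitory receptor PD-1 of activated T cells, averaged 1.65 ± 0.55 CPM in diabetic and 0.117 ± 0.099 CPM in control cortex (SD, n = 4 each; log2 fold change 3.79 ± 0.66, edgeR adjusted p = 0.00412). Tigit, another inhibitory receptor, averaged 0.690 ± 0.15 CPM in diabetic and 0.0713 ± 0.10 CPM in control cortex (3.17 ± 0.86, adjusted p = 0.0272). Ighm, the heavy chain of IgM, averaged 35.9 ± 28 CPM in diabetic and 4.19 ± 0.69 CPM in control cortex (3.11 ± 0.64, adjusted p = 0.0144), with a wide spread among the diabetic libraries. Irf4, a factor of plasma cells and activated T cells, was called higher too (1.61 ± 0.42, adjusted p = 0.0234). Cr2, the complement receptor of B cells, was called lower, at 0.828 ± 0.17 CPM in diabetic and 1.67 ± 0.19 CPM in control cortex (-1.01 ± 0.24, adjusted p = 0.0148).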
